A study of Mus musculus with 4 samples.

Results

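The genes described here encode the machinery that builds lytic granules, carries them along microtubules, docks them at the plasma membrane and fuses them with it. They are 36 genes chosen by name, of 18804 genes in the deposited table of RNA-seq values. Of these, 35 were measured, 34 averaged 1 FPKM or more and were tested, and Vti1a lay just under that level with a mean of 0.978 FPKM. The lowest gene above it was Lyst, with a mean of 1.87 FPKM. Vamp7 was not analysed here. FPKM is a fragment count scaled for gene length and for sequencing depth, so levels can be set side by side between genes.

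The RNA came from ILC1s, group 1 innate lymphoid cells, of the livers of mice 5 to 8 weeks old at homeostasis. Libraries were made from Cd200r-/- mice (knockout libraries 1 and 2) and from WT mice (WT libraries 1 and 3), with no treatment in either group. The deleted gene encodes an inhibitory surface receptor for the ligand CD200, and the series asks how it bears on the cytotoxicity of ILC1s. The strain, the sex, the structure of the knockout allele, the sort gates and whether a library holds 1 mouse or a pool were not stated in the labels. The p-values therefore reflect only library-to-library spread, part of which may be technical.

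Cytotoxic lymphocytes store perforin and granzymes in secretory lysosomes. On contact with a target cell, kinesin and dynein motors move these granules, the small GTPase Rab27a and its effectors tether them to the plasma membrane, Munc13-4 primes them, and SNARE proteins on the granule (R-SNAREs) and on the target membrane (Q-SNAREs) zip into a bundle of helices that joins the membranes. In humans, loss of UNC13D, STX11, STXBP2 or RAB27A impairs killing by NK cells and T cells and causes haemophagocytic syndromes, and loss of LYST gives the giant granules of Chediak-Higashi syndrome.

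R-SNAREs are named for an arginine at the centre of the bundle, where the Q-SNAREs carry glutamine. The coding stretch around that residue is shown for the 6 R-SNAREs measured among the members, since this is the feature that sorts the fusion genes into the classes used below. The sequences are of the coding strand, 5′ to 3′, from GENCODE M21 transcripts of GRCm38, and the capitals mark the arginine codon.
Vamp2: aaggtcctggagCGGgaccagaagttg
Vamp3: aaggtgttagaaAGAgaccagaagctc
Vamp4: aaggtaattgaaAGAggagagaggctg
Vamp8: cggatcttggccAGAggggagaacctg
Ykt6: tctttgttagagCGAggcgagaagctt
Sec22b: gaagtcctacagCGGggagaagcactc
All 6 had an arginine codon at the position aligned to that of Vamp2. The proteins of Vamp2 and Vamp3 were 73.8% identical over 103 aligned residues, whereas Vamp8 was 35.4% identical to Vamp2 over 96.

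Low values gave relative depths of 95.9%, 95.6% and 94.7% of knockout library 1 for knockout library 2, WT library 1 and WT library 3. The targeted gene Cd200r1 measured 110.7 and 103.7 FPKM in knockout, against 161.5 and 173.3 FPKM in WT, so its transcript was reduced and not absent in the libraries labelled knockout (adjusted p = 0.00451, limma). The ILC1 label was checked against 15 ILC1 and NK markers, which summed to 25374 and 27166 FPKM in knockout, against 29827 and 30239 FPKM in WT. Of these, 7 were lower and 2 higher in both knockout libraries, and besides Cd200r1 only Gzmb, which encodes granzyme B, passed (3090 and 2901 FPKM in knockout, against 4226 and 4247 FPKM in WT, adjusted p = 0.00558, limma). Tbx21 measured 256 and 253 FPKM in knockout, against 254 and 263 FPKM in WT, and Itga1 42.2 and 32.8 FPKM in knockout, against 48.3 and 53.0 FPKM in WT. Eomes, which marks conventional NK cells, measured 2.99 and 5.40 FPKM in knockout and 0.475 and 1.196 FPKM in WT. Markers of other cells also differed, as did mitochondrial mRNAs, which mark no cell type. In knockout and WT libraries, the summed FPKM of 10 conventional NK markers was 279.9 and 577.4 against 97.7 and 94.4, with 9 of 10 higher in both knockout libraries. The sum of 12 macrophage markers was 651.3 and 964.1 against 245.0 and 222.4, with 9 of 12 higher, that of 8 erythroid markers 12744 and 14301 against 24901 and 27025, with 7 of 8 lower, and that of 13 mitochondrial mRNAs 12831 and 15137.5 against 6697 and 8481, with 13 of 13 higher. None of these markers was at 0 in all libraries. Of all genes tested, 24.3% were higher and 21.7% lower in both knockout libraries than in both WT libraries. Markers of hepatocytes, T cells, B cells, neutrophils and mast cells, and platelets were also read and are not given here. Many SNARE genes are active in all of these cells, and the part of other cells in the values below was not tested. In such bulk libraries, fewer cells of a type and less RNA per cell cannot be told apart.

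No gene of the machinery passed the test between knockout and WT. Of 34 tested, 0 rose, 0 fell and 34 did not pass at an adjusted p of 0.05 (limma on log2(FPKM + 1), adjusted over all 9476 genes tested). In the same fit 3.33% of all genes passed, 2.40% higher and 0.939% lower in knockout. At an unadjusted p under 0.05 (limma) there were 3 members, Sytl2, Unc13d and Nsf, all with lower values in knockout. That threshold took 15.5% of all genes tested, and 6.52% of all genes tested were under it with lower values. The 95% confidence intervals of all 34 differences in log2(FPKM + 1) lay between −0.91 and 0.75. None therefore reached a 2-fold change of FPKM + 1 in either direction, as was true of 90.8% of the intervals of all genes tested. This bound did not hold in every setting. With 0.1 added in place of 1, the interval of Lyst reached −1.12. With no filter, those of Unc13d, Ap3d1 and Stx4a reached −1.08, −1.10 and 1.08. In every fit with a library left out, some members' intervals also went beyond a 2-fold change, those of Rab27a and Sytl2 among them. These intervals are for each gene alone and are not adjusted for the number of genes. An exact permutation test of a single gene in 2 against 2 libraries cannot give a p below 0.333.

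The members' median log2 fold change, knockout minus WT, was −0.06, against 0.00 over all genes tested, and 19 of 34 were below 0 (55.9%, against 49.5% of all genes). The knockout and WT libraries did not overlap for 17 of the 34, beside 46.0% of all genes. Of these, 11 were lower in knockout (21.7% of all genes were) and 6 were higher (24.3% of all genes were). The median absolute difference was 0.16 for members and for all genes alike.

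**Figure D1:**
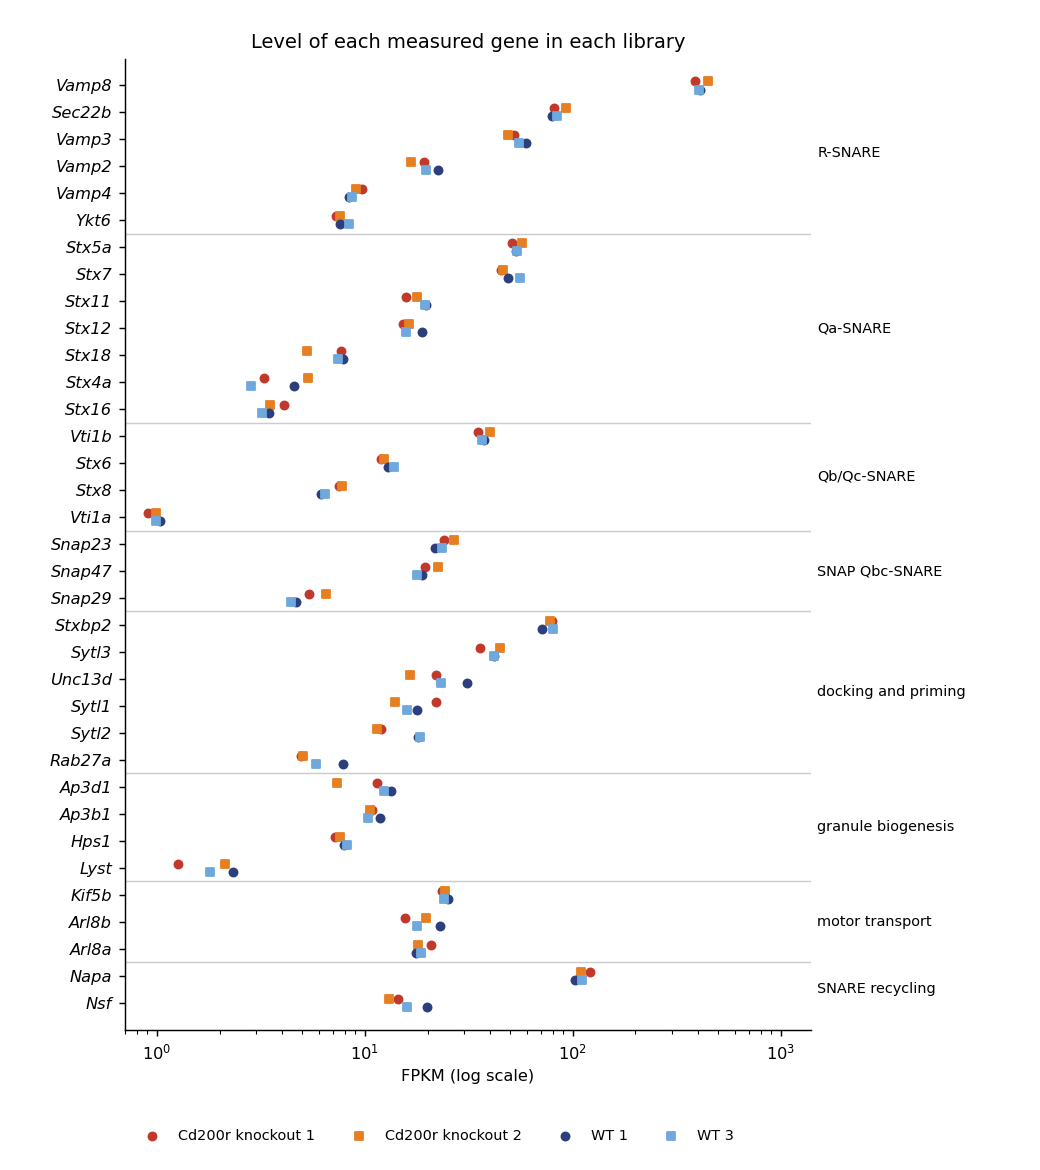
FPKM (log scale) of the 35 measured genes in each library, grouped by role; red circles and orange squares are Cd200r knockout libraries 1 and 2 and dark blue circles and light blue squares are WT libraries 1 and 3. Levels between genes span from about 1 FPKM for Vti1a to between 388 and 445 FPKM for Vamp8, while the 4 libraries lie close together for most genes.

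The levels differed far more between genes than between genotypes. The 35 measured members summed to 1206 and 1268 FPKM in knockout, against 1256 and 1248 FPKM in WT. Vamp8, the R-SNARE of late endosomes and secretory granules, was the highest, with 388 and 445 FPKM in knockout and 409 and 406 FPKM in WT. It made up 69.5% and 71.8% of the summed FPKM of the 6 R-SNARE members in knockout, and 69.8% in each WT library. Vamp1 and Vamp5, measured but not members, are not in that sum. The level of Vamp8 stood at the 98.4th percentile of all genes tested. Vamp8 is singled out for its level, after the values were seen. Next in the order of mean level came Napa, Sec22b, Stxbp2, Stx5a, Vamp3 and Stx7. The lowest tested members were Lyst, Stx16 and Stx4a, all under 4 FPKM on average.

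Docking and priming genes held the largest differences. Sytl2 (Entrez 83671, GRCm38 chromosome 7, 90302211 to 90410719) encodes Slp2-a, a synaptotagmin-like effector that links Rab27a on granules to the plasma membrane. It measured 11.9 and 11.5 FPKM in knockout, against 17.9 and 18.3 FPKM in WT. Both knockout libraries were low and both WT libraries high, with little spread inside either group (11.7 ± 0.331 and 18.1 ± 0.273 FPKM, SD, n = 2 each). The log2 fold change was −0.59 (SE 0.14, interval −0.91 to −0.27), and the adjusted p of 0.0567 missed the threshold. In knockout library 1 the difference from the WT mean was −0.56 and in knockout library 2 it was −0.62. Over the 12 alternatives to the analysis the adjusted p of Sytl2 ranged from 0.0464 to 0.302 and its log2 fold change from −0.63 to −0.47. It passed without knockout library 1 (adjusted p = 0.0464), with genes averaging 5 FPKM or more (0.0499) and after rescaling without haemoglobin and mitochondrial genes (0.0495). In these 3 settings 2.35%, 1.26% and 0.971% of all genes passed with lower values in knockout.

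Unc13d (Entrez 70450, chromosome 11, 116062095 to 116078495) encodes Munc13-4, which primes docked granules for fusion. It measured 21.9 and 16.5 FPKM in knockout, against 31.0 and 23.2 FPKM in WT. The groups did not overlap, but knockout library 1 and WT library 3 lay close together. The log2 fold change was −0.48 (SE 0.18, adjusted p = 0.216, limma). It was −0.67 without knockout library 1, where Unc13d passed, and −0.28 without knockout library 2 or WT library 1.

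Rab27a (Entrez 11891, chromosome 9, 73044810 to 73097623), the GTPase needed for granules to dock, measured 4.92 and 5.06 FPKM in knockout, against 7.85 and 5.84 FPKM in WT. Knockout libraries were alike and both below WT, and the WT libraries differed from each other by more than the lower of them differed from knockout. The log2 fold change was −0.38 (SE 0.20, adjusted p = 0.416, limma), and it was −0.19 without WT library 1 and −0.56 without WT library 3. Its effector Sytl2 also had lower values in knockout, and neither gene passed. The other synaptotagmin-like genes, Sytl1 and Sytl3, had log2 fold changes of 0.05 and −0.06.

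The other 3 docking genes lay near 0. Stxbp2, which encodes Munc18-2, the syntaxin-binding partner of Stx11, was abundant at 79.4 and 77.4 FPKM in knockout, against 71.3 and 80.2 FPKM in WT. Its groups overlapped, and the interval of its log2 difference was narrow (−0.18 to 0.28). Sytl3, another synaptotagmin-like protein, measured 35.9 and 44.5 FPKM in knockout, against 41.8 and 41.9 FPKM in WT, so that the knockout libraries lay on either side of WT. Sytl1 showed the widest gap between knockout libraries of all tested members on the log2 scale (−0.62, library 2 minus library 1), with 21.9 and 13.9 FPKM, against 17.8 and 15.9 FPKM in WT. Within the 6 genes of the group, the median log2 fold change was −0.22.

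**Figure D2:**
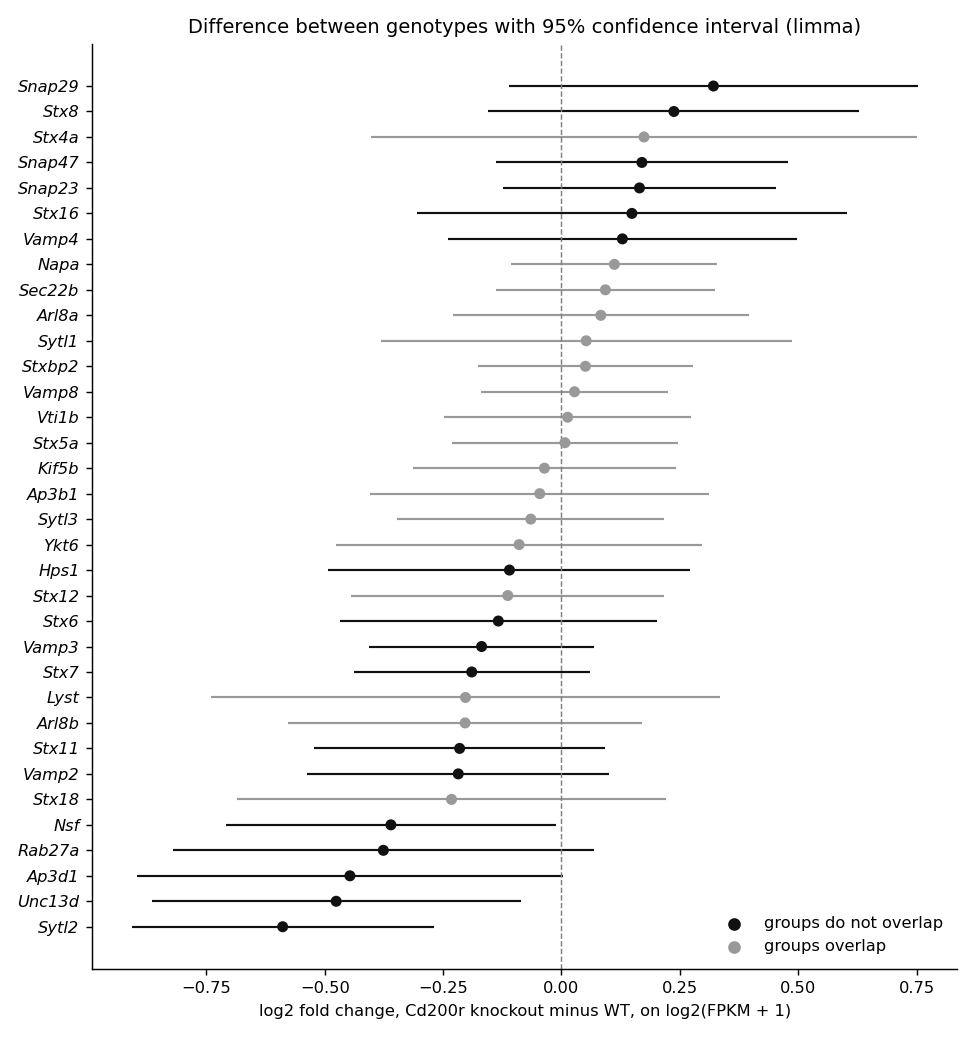
Log2 fold change of each tested gene, Cd200r knockout minus WT on log2(FPKM + 1), with its 95% confidence interval from limma; black marks genes whose knockout and WT libraries do not overlap and grey those that do. Every interval lies inside −0.91 to 0.75, and those of Sytl2, Unc13d and Nsf do not reach 0.

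None of the tested syntaxins and their relatives, the Q-SNAREs of the target membrane and of endosomes, passed. Their intervals were as wide as that of Stx4a, from −0.40 to 0.75. Stx11, the syntaxin needed for lytic granule fusion in human NK cells, measured 15.8 and 17.7 FPKM in knockout, against 19.7 and 19.5 FPKM in WT. Both knockout libraries were below both WT libraries, by a log2 fold change of −0.22 with an interval of −0.52 to 0.09. Stx7, a late endosomal syntaxin, measured 45.3 and 45.9 FPKM in knockout, against 48.7 and 55.8 FPKM in WT, again without overlap (log2 fold change −0.19, SE 0.11, adjusted p = 0.467, limma).

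Stx12, of recycling endosomes, measured 15.2 and 16.4 FPKM in knockout and 18.7 and 15.7 FPKM in WT, with overlap. Stx18, of the endoplasmic reticulum, measured 7.67 and 5.24 FPKM in knockout and 7.84 and 7.45 FPKM in WT. Knockout library 2 alone stood low for Stx18, and without it the log2 fold change was 0.01. The other members of the Qa class, Stx4a, Stx5a and Stx16, had log2 fold changes between 0.01 and 0.17. Of the 7 genes of the class, 3 were above and 4 below 0, with a median of −0.11.

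Among the Qb and Qc SNAREs of endosomal membranes, Stx8 measured 7.48 and 7.73 FPKM in knockout, against 6.18 and 6.41 FPKM in WT. Its knockout libraries were both higher (log2 fold change 0.24, SE 0.18, adjusted p = 0.582, limma). Stx6, of the trans-Golgi network, measured 11.9 and 12.3 FPKM in knockout and 12.9 and 13.8 FPKM in WT, the opposite order. Vti1b, which pairs with Stx7 and Stx8 in late endosomal fusion, measured 35.1 and 39.8 FPKM in knockout and 37.3 and 36.7 FPKM in WT. Its groups overlapped, so the partners Stx7, Stx8 and Vti1b did not share a direction.

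The SNAP proteins, which give 2 helices each to the bundle, did not pass in any of 3 tested genes. All 3 had higher values in both knockout libraries, as did 24.3% of all genes. Snap29 measured 5.37 and 6.49 FPKM in knockout, against 4.66 and 4.40 FPKM in WT, which differed by 0.32 on the log2 scale (SE 0.20, adjusted p = 0.478, limma). Snap23, the widely expressed plasma membrane form, measured 24.0 and 26.8 FPKM in knockout and 21.7 and 23.4 FPKM in WT. Its knockout library 1 was less than 1 FPKM above WT library 3. Snap47 measured 19.4 and 22.3 FPKM in knockout and 18.9 and 17.9 FPKM in WT. Knockout library 2 was the higher one for each, and the median log2 fold change was 0.17.

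The R-SNAREs other than Vamp8 ranged over both directions. Vamp2 measured 19.3 and 16.7 FPKM in knockout, against 22.5 and 19.8 FPKM in WT. Its near relative Vamp3, of recycling endosomes, measured 52.3 and 48.8 FPKM in knockout, against 59.2 and 54.8 FPKM in WT. Both genes of this pair had lower values in knockout with no overlap, by log2 fold changes of −0.22 and −0.17 (adjusted p = 0.520 and 0.504, limma).

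Vamp4, of the trans-Golgi network, measured 9.67 and 9.09 FPKM in knockout, against 8.36 and 8.62 FPKM in WT. Sec22b, of transport between the endoplasmic reticulum and the Golgi, measured 81.4 and 92.8 FPKM in knockout and 79.1 and 83.9 FPKM in WT. Vamp4 did not overlap between the groups and Sec22b did. The interval for Vamp8 was −0.17 to 0.22. Of the 6 genes, 3 were above and 3 below 0.

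All 4 genes of granule biogenesis had log2 fold changes below 0 (49.5% of all genes did), with a median of −0.16. Of these, Lyst was at 0.03 without knockout library 1 and Ap3b1 at 0.05 without WT library 1. Ap3d1 (Entrez 11776, chromosome 10, 80706956 to 80742303) encodes the delta subunit of AP-3, the adaptor that sorts membrane proteins to lysosomes and granules. It measured 11.5 and 7.31 FPKM in knockout, against 13.4 and 12.4 FPKM in WT. The difference came mainly from knockout library 2, which was −0.74 from the WT mean on the log2 scale, while knockout library 1 was −0.15 from it. The log2 fold change over all libraries was −0.45 (SE 0.20, adjusted p = 0.327, limma). It was −0.74 without knockout library 1, where Ap3d1 passed, and −0.15 without knockout library 2.

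Ap3b1, the beta subunit of the same complex, measured 10.9 and 10.5 FPKM in knockout and 11.9 and 10.3 FPKM in WT. Its groups overlapped and its log2 fold change was −0.05, so the 2 subunits of one adaptor differed in how far they lay from WT; this difference between them was not tested. Hps1, a subunit of the BLOC-3 complex of lysosome-related organelles, measured 7.20 and 7.56 FPKM in knockout and 7.89 and 8.20 FPKM in WT, without overlap. Lyst, the regulator of granule size, was low and uneven, at 1.26 and 2.12 FPKM in knockout and 2.33 and 1.80 FPKM in WT. It had the second widest SE of the members (0.24), after Stx4a (0.26).

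**Figure D3:**
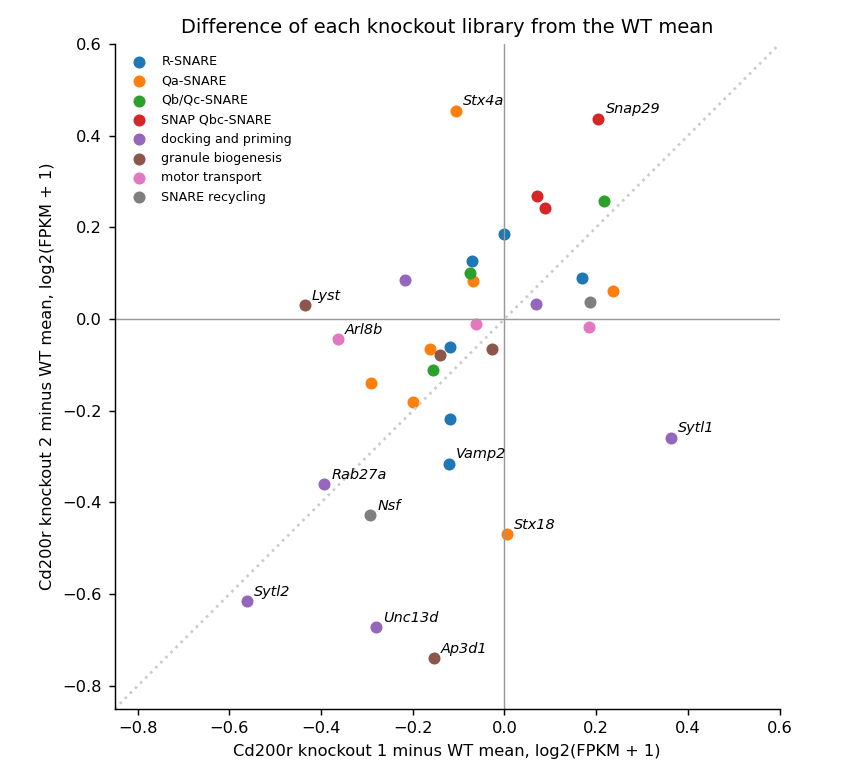
Difference of Cd200r knockout library 1 (x axis) and knockout library 2 (y axis) from the WT mean, on log2(FPKM + 1), for the 34 tested genes coloured by role; the dotted line marks equal values. Sytl2 and Rab27a lie near the line at about −0.6 and −0.4, Ap3d1 and Unc13d lie below it, and Sytl1, Lyst and Stx4a have opposite signs in the 2 libraries.

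Transport genes gave no common direction. Arl8b, the GTPase that couples lytic granules to kinesin, measured 15.5 and 19.6 FPKM in knockout, against 23.0 and 17.8 FPKM in WT. Its paralog Arl8a measured 20.7 and 17.9 FPKM in knockout, against 17.6 and 18.7 FPKM in WT. The 2 proteins are 91.4% identical over 186 residues, yet their transcripts shared 0 stretches of 50 bases, so no such stretch could be counted for both. Kif5b, the kinesin heavy chain, measured 23.5 and 24.4 FPKM in knockout and 25.2 and 23.9 FPKM in WT. All 3 overlapped between the groups.

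Nsf (Entrez 18195, chromosome 11, 103821782 to 103954056) encodes the ATPase that takes spent SNARE bundles apart, and Napa encodes its adaptor alpha-SNAP. Nsf measured 14.4 and 13.0 FPKM in knockout, against 19.9 and 16.0 FPKM in WT, with both knockout libraries lower. Its log2 fold change was −0.36 (SE 0.16, adjusted p = 0.305, limma), with −0.21 without WT library 1 and −0.51 without WT library 3. Napa measured 121 and 109 FPKM in knockout, against 103 and 110.2 FPKM in WT, with overlap. Napa therefore stood at several times the level of Nsf in every library.

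The knockout libraries lay on opposite sides of the WT mean for 10 of 34 members (29.4%, against 31.7% of all genes). The median gap between replicates was 0.15 on the log2 scale between knockout libraries and 0.10 between WT libraries for the members, against 0.18 and 0.15 for all genes. The members were thus no more uneven within a genotype than genes in general, though the comparison was not matched for level.

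**Figure D4:**
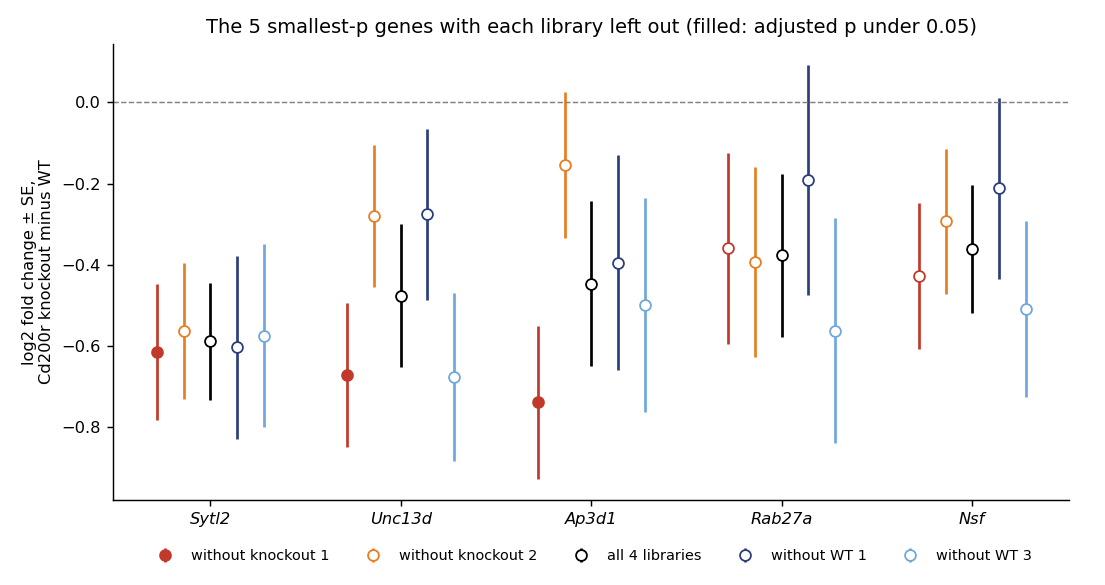
Log2 fold change (Cd200r knockout minus WT, ± SE from limma) of the 5 members with the smallest p, with all 4 libraries (black) and with each library left out in turn; filled points have an adjusted p under 0.05. Sytl2 stays between −0.62 and −0.56, whereas Ap3d1 spans −0.74 to −0.15 and Unc13d −0.68 to −0.28.

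Other genes of the same machinery, listed by role, also gave no call. Of 93 listed, 81 were measured and 65 tested, of which 0 rose, 0 fell and 65 did not pass, with a median log2 fold change of −0.01. At an unadjusted p under 0.05 there were 5 of 65 (limma), Rab32, Baiap3, Stx2, Rab8a and Exoc2, where that threshold took 15.5% of all genes. By group, 13 other SNAREs, 9 genes of SM proteins and SNARE recycling, 15 of docking, priming and tethering, 17 of AP-3, HPS and BLOC complexes and 11 of kinesin, BORC and dynein were tested.

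The genes with the smallest p in that list were the following. Rab32, a GTPase of lysosome-related organelles, measured 11.5 and 8.70 FPKM in knockout, against 5.96 and 4.58 FPKM in WT, which differed by 0.82 on the log2 scale (SE 0.20, adjusted p = 0.0609, limma). Baiap3, a relative of Munc13-4, measured 21.7 and 17.6 FPKM in knockout, against 32.2 and 26.2 FPKM in WT (−0.55, SE 0.15, adjusted p = 0.0947, limma). These 2 had no overlap between the groups and did not pass.

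Stx2, a plasma membrane syntaxin, measured 8.77 and 10.2 FPKM in knockout, against 13.7 and 15.1 FPKM in WT. Rab8a, a GTPase of exocytic transport, measured 367 and 391 FPKM in knockout, against 309 and 316 FPKM in WT. Exoc2, a subunit of the exocyst tether, measured 23.0 and 22.4 FPKM in knockout, against 30.2 and 27.9 FPKM in WT. Stx2 and Exoc2 were thus lower and Rab8a higher in both knockout libraries, with adjusted p of 0.107, 0.212 and 0.111 (limma). Syt11, a synaptotagmin that binds no calcium, measured 4.65 and 4.70 FPKM in knockout, against 1.995 and 4.04 FPKM in WT. Rab32 passed with genes averaging 5 FPKM or more (0.82, adjusted p = 0.0480), without knockout library 2 (1.004, adjusted p = 0.0273) and without WT library 1 (0.98, adjusted p = 0.0486), where 2.41%, 1.79% and 2.11% of all genes passed with higher values, and Baiap3 passed without knockout library 1 (−0.69, adjusted p = 0.0230).

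The members share annotation, and the SNARE terms among it follow from the choice of SNARE genes by name. In the deposited table, 20 of 35 carry the gene ontology term for the SNARE complex, of 37 genes with it in all, and 18 carry the KEGG pathway of SNARE interactions in vesicular transport, of 31. Only Stx11, Unc13d and Rab27a carry the term for natural killer cell degranulation, which 6 genes in the table have. None of these 3 passed. The annotation also bears on how reads were shared. The library kit does not mark strand, so reads from genes that overlap on opposite strands cannot be told apart. In GENCODE M21, 32.3% of the exon bases of Stx18 lie over exons on the other strand (Nsg1 and Gm42858), as do 17.7% for Vti1b (Arg2) and 11.6% for Snap47 (Jmjd4), and 21.1% of the 50-base stretches of Sytl3 occur in transcripts of other genes (Gm29719 and Gm29721). The values of these 4 are uncertain to that extent. For the remaining 31 these shares were at most 5.25% and 5.14%.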

How the data were processed

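Total RNA of liver ILC1s was turned into full-length cDNA by a single-cell amplification kit and then into libraries by a transposase kit, per the labels' protocols. The authors deposited FPKM per gene. Per the submitters' processing notes, the build was mm10 and the tools included DESeq2, HTSeq, HISAT2 and fastp as well as R 3.2.0; their roles are not recorded. The table holds no counts, so no count test was run. Relative depth was taken as the most frequent ratio of values under 1 FPKM between libraries, and total reads were not derived.

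Values were tested as log2(FPKM + 1) for 9476 genes averaging 1 FPKM or more, with limma 3.58.1 (R 4.3.3, mean-variance trend, two-sided, no covariate) and Benjamini-Hochberg adjustment over all of them. The fit was run on data simulated under its own assumptions, which cannot show how well those assumptions hold for these libraries. Log2 fold changes are knockout minus WT and understate the change of low genes. Coordinates are from RefSeq GRCm38.p6, the assembly of mm10; all 35 identifiers matched. Protein sequences were not printed; identities were computed from GENCODE M21 coding sequences.

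The members and lists were chosen with earlier results of these data known. Library values are given for Unc13d, Stx11, Stxbp2, Rab27a, Lyst and Ap3b1, for the members of lowest p in every role (up to 4), and for up to 6 other genes of the machinery; Vamp8 and Sytl1 were added after their values were seen. A total of 12 alternatives were run.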

Additional observations from a re-analysis of the deposited data

How the results depend on the processing

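A library number is shared between the groups only once. No paired analysis was possible because the knockout libraries are numbered 1 and 2 and the WT libraries 1 and 3, and nothing ties them together. The count of members past the test in the higher direction was 0 under all 12 alternatives. In the lower direction it was 1 (Sytl2) when genes had to average 5 FPKM or after rescaling without haemoglobin and mitochondrial genes. In these settings 1.26% and 0.971% of all genes passed with lower values. Sytl2, Unc13d and Ap3d1 also passed in the lower direction without knockout library 1, a fit that leaves 1 knockout library. Their log2 fold changes in it were −0.62, −0.67 and −0.74. Over all genes, 316 passed, against 0 with no filter (1898 at an unadjusted p under 0.05, and 1 member), 70 without the mean-variance trend and 256 to 574 with a library left out. Members without overlap between groups numbered 21 to 29 with a library left out, where 2 are set against 1. That was 61.8% to 85.3% of members, beside 68.2% to 77.3% of all genes. Pathway genes outside the members that passed numbered 1 (Rab32) when genes had to average 5 FPKM, where 2.41% of all genes passed with higher values. Some also passed with a library left out. Their log2 fold changes were −0.69 for Baiap3 and 1.18 for Borcs7 without knockout library 1. For Rab32 they were 1.004 without knockout library 2 and 0.98 without WT library 1. The members' median ranged from −0.09 to −0.01 with a library left out. Where a library is left out, the lone sample of its group is assumed to vary like the others.

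Of 405 single-gene values under alternatives, 377 kept direction and side of the threshold, 5 passed only under the alternative and 23 turned sign, in 14 members. With quantile normalization Vamp8 was −0.062, Stx5a −0.016, Vti1b −0.031 and Stxbp2 −0.0041. With TPM Stx5a was −5.3e-04, and after rescaling without haemoglobin and mitochondrial genes Stx5a was −0.019 and Vti1b −0.013. With a library left out, Vamp8 ranged from −0.072 to 0.13, Sec22b from −0.0012 to 0.19, Stx4a from −0.11 to 0.45, Stx5a from −0.069 to 0.083, Stx12 from −0.23 to 0.0057, Stx18 from −0.47 to 0.0051, Vti1b from −0.075 to 0.10, Stxbp2 from −0.033 to 0.13, Sytl1 from −0.26 to 0.36, Sytl3 from −0.22 to 0.086, Lyst from −0.44 to 0.030, Ap3b1 from −0.14 to 0.045, Arl8a from −0.018 to 0.18 and Kif5b from −0.073 to 0.0011. The cause of these shifts was not tested.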
